A study of Mus musculus with 8 samples.

Results

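The 6 genes described here, H2-Aa, H2-Ab1, H2-Eb1, H2-DMa, Cd74 and Ciita, serve antigen presentation by major histocompatibility complex (MHC) class II in the mouse. They were taken by name from 19938 genes, and each was read by 1 probe set that names it alone. They were followed over 8 Affymetrix arrays of RNA from isolated small-intestinal epithelial cells. The mice were 8-week-old ICR males, from an outbred stock, whose intestine had been transfected in the living animal 4 days earlier. siYAP/TAZ (n = 3 arrays) had siRNAs against the Hippo pathway coactivators YAP and TAZ, and siGFP (n = 3) had an siRNA against GFP, which normal mice lack. shYAP/TAZ (n = 1) had plasmids for shRNAs against YAP and TAZ, and shLacZ (n = 1) had a plasmid for an shRNA to LacZ, a bacterial gene. The labels name siGFP 1, 2 and 3 as the controls for siYAP/TAZ 1, 2 and 3, and shLacZ as the control for shYAP/TAZ. They do not say which cells took up the nucleic acids, whether mice were pooled, or that arrays came from separate mice, so p-values measure only sample-to-sample spread, which could be technical in part or whole.

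Class II molecules carry peptides from endocytosed proteins to the cell surface for CD4+ T cells. They are pairs of an alpha and a beta chain, H2-Aa with H2-Ab1 (I-A) and H2-Ea with H2-Eb1 (I-E). The invariant chain, encoded by Cd74, fills the groove and guides the pair to endosomes, where H2-DM, of which H2-DMa is the alpha chain, exchanges the last invariant chain fragment for peptide. Ciita is the coactivator without which class II genes are hardly transcribed. It is active in B cells and dendritic cells, and interferon gamma induces it in other cells, among them small intestinal enterocytes.

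Ciita works through proteins bound to conserved boxes just upstream of class II genes, among them the X box (RFX and CREB proteins) and the Y box (NF-Y). RefSeq promoter entries in GRCm38.p6 were matched for 3 of the 6 genes, and the I-A alpha chain and I-E beta chain promoters are shown because these chains part from each other below. The printed stretch is the 150 bases before the annotated start, 5′ to 3′ along the gene. Capitals mark the Y box core CTGATTGG, the X box pattern and the cyclic AMP response element TGACGTCA, with letters chosen after the sequences were read and searched on both strands.
H2-Aa, chr17:34287824-34287973, minus strand: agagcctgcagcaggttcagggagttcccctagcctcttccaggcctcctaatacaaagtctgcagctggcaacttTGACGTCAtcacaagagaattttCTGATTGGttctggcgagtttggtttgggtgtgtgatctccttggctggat
H2-Eb1, chr17:34305717-34305866, plus strand: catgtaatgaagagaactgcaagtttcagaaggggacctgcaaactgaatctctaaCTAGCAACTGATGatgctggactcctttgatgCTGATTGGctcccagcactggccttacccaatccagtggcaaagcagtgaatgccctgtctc
The H2-DMa promoters, of which RefSeq lists 2, held none of these 3 motifs. Both printed stretches held the Y box core, beginning 51 bases before the start in H2-Aa and 62 in H2-Eb1. H2-Eb1 also held the X box pattern, beginning 94 bases before its start, and H2-Aa the cyclic AMP response element, beginning 74 bases before its start. Of 32851 RefSeq promoter windows of the same kind (250 bases before to 50 after the start), 4.1% held the Y box core, 0.268% the X box pattern and 1.79% the response element. A match describes the letters only, and a missing match does not mean that a box is missing. As the letters were chosen after the sequences were read, the matches are no basis for comparing these promoters.

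The arrays as a whole set the frame. Deposited median intensities lay between 76.4 and 95.5, and Pearson's r between arrays over all genes between 0.765 and 0.963. The first principal component, with 56.8% of the variance, set siYAP/TAZ 2, siYAP/TAZ 3 and siGFP 3 (scores of 57.5 to 64.5) apart from the other 5 arrays (-70.3 to -1.67). The epithelial markers Epcam and Krt8 were bright on every array, at log2 intensities of 11.47 to 12.38 and 11.71 to 12.84. Other epithelial markers varied more between arrays. Krt18 ran from 8.33 in siYAP/TAZ 3 to 10.68 in siYAP/TAZ 1, and Cdx2 from 8.21 in siYAP/TAZ 2 to 9.92 in siGFP 1. Yap1 averaged 7.22 ± 0.38 in siYAP/TAZ and 7.33 ± 0.27 in siGFP, and Wwtr1, which encodes TAZ, 5.73 ± 0.18 and 6.01 ± 0.59 in the same order (log2 intensity, SD, n = 3 each; limma adjusted p = 1.00 for both). Yap1 was higher in siYAP/TAZ than in the labelled control in pairs 1 and 3, by 0.25 and 0.27 on the log2 scale. The groups are therefore called by their labels, and each direction below is that of the labels. All levels below are quantile-normalized log2 intensities, apart from summed intensities. Since probe sets differ in brightness, levels are compared between arrays and never between genes. A summed intensity adds the linear values of the genes of a list, so its brightest probe sets weigh most in it.

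The class II genes were among the most variable genes of the data, and much of their range lay between arrays of the same group. H2-Aa, the I-A alpha chain, read 9.64, 8.60 and 7.89 in siYAP/TAZ 1, 2 and 3, against 9.59, 7.77 and 5.16 in siGFP 1, 2 and 3. It read 5.80 in shYAP/TAZ, against 5.98 in shLacZ. The siGFP arrays alone thus spanned a 21.6-fold range, the groups overlapped, and both arrays numbered 1 stood highest. H2-Ab1, the I-A beta chain, read 9.75, 8.96 and 8.94 in siYAP/TAZ, against 10.57, 8.42 and 6.17 in siGFP, and 6.90 in shYAP/TAZ, against 6.87 in shLacZ. Its order over the arrays was close to that of its partner chain, with a 21.1-fold range within siGFP. Cd74, the invariant chain, read 11.22, 10.52 and 9.58 in siYAP/TAZ, against 11.43, 9.58 and 7.62 in siGFP, and 8.67 in shYAP/TAZ, against 7.95 in shLacZ. It again stood highest in the arrays numbered 1 and lowest in siGFP 3. H2-DMa, the alpha chain of the peptide exchanger, read 8.50, 6.72 and 6.77 in siYAP/TAZ, against 8.78, 6.82 and 5.36 in siGFP, and 6.29 in shYAP/TAZ, against 6.13 in shLacZ. The arrays numbered 1 were apart from the other 6 for this gene, which lay between 5.36 and 6.82.

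H2-Eb1 and Ciita had another order. H2-Eb1, the I-E beta chain, read 7.02, 9.82 and 9.50 in siYAP/TAZ, against 10.22, 7.69 and 6.92 in siGFP, and 7.30 in shYAP/TAZ, against 6.72 in shLacZ. It was high in siGFP 1, siYAP/TAZ 2 and siYAP/TAZ 3 and lay at 7.69 or below on every other array. Ciita, the coactivator, read 5.36, 7.54 and 7.85 in siYAP/TAZ, against 6.65, 6.05 and 5.56 in siGFP, and 5.67 in shYAP/TAZ, against 5.83 in shLacZ. The same 3 arrays stood highest, and siYAP/TAZ 1 stood lowest of all 8. So siYAP/TAZ 1 was among the highest arrays for H2-Aa, H2-Ab1, Cd74 and H2-DMa and among the lowest for H2-Eb1 and Ciita. Over the 8 arrays the SD was 1.73 for H2-Aa, 1.54 for H2-Ab1, 1.45 for H2-Eb1, 1.43 for Cd74, 1.16 for H2-DMa and 0.94 for Ciita. The median SD of all genes was 0.39, and 99.7% of genes varied less than H2-Aa and 95.4% less than Ciita. Class II genes differ in sequence between mouse haplotypes, ICR mice are outbred, and the effect of such differences on these probe sets was not tested. In RNA from an isolate of many cells, fewer cells of a type and less RNA per cell cannot be told apart.

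**Figure D1:**
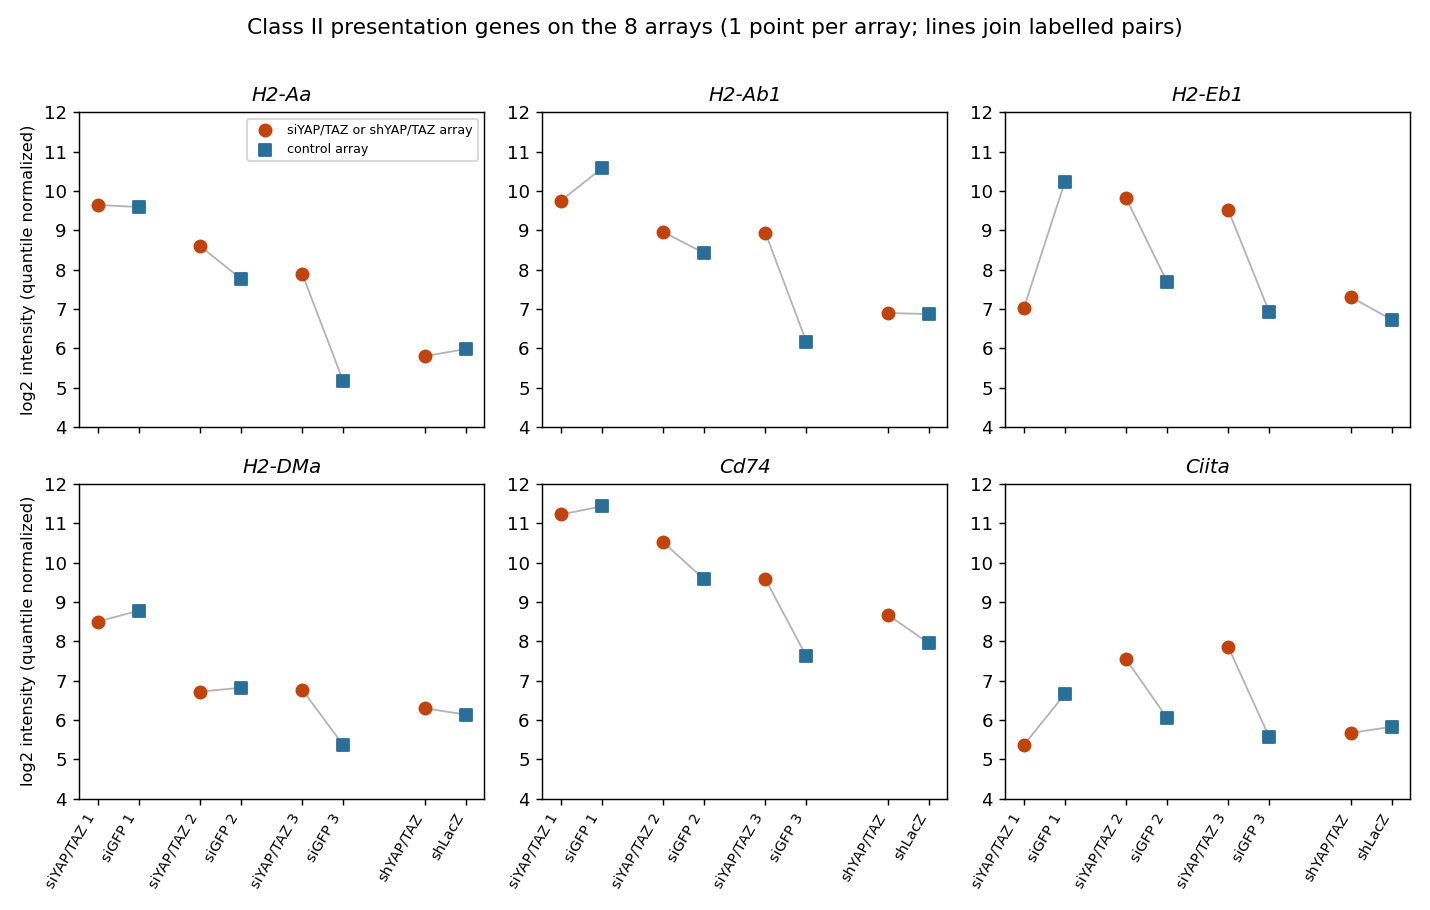
Log2 intensity of each class II gene (vertical axis) on the 8 arrays (horizontal axis), with siYAP/TAZ and shYAP/TAZ arrays as circles left of their control arrays as squares, and grey lines joining labelled pairs. H2-Aa, H2-Ab1, Cd74 and H2-DMa were highest in the arrays numbered 1, while H2-Eb1 and Ciita were highest in siYAP/TAZ 2, siYAP/TAZ 3 and siGFP 1.

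These orders were compared with correlations over the 8 arrays, each with an exact two-sided permutation test and Benjamini-Hochberg adjustment over the 15 pairs of genes. H2-Aa and H2-Ab1, the partner chains, had Pearson's r = 0.982 (exact permutation p = 0.000149, adjusted p = 0.00102) and Spearman's rho = 0.952 (exact permutation p = 0.00114, adjusted p = 0.0057). H2-Ab1 and Cd74 had r = 0.97 (exact permutation p = 0.000174, adjusted p = 0.00102) and rho = 1 (exact permutation p = 4.96e-05, the smallest it can give, adjusted p = 0.000744). H2-Aa and Cd74 had r = 0.981 (exact permutation p = 0.000273, adjusted p = 0.00102) and rho = 0.952 (exact permutation p = 0.00114, adjusted p = 0.0057). The r of H2-DMa was 0.912 with H2-Aa, 0.923 with H2-Ab1 and 0.923 with Cd74, and its rho 0.857, 0.905 and 0.905 (exact permutation, adjusted p of 0.00102 to 0.00149 for r and 0.0137 to 0.0268 for rho). Without the 2 arrays farthest from the median of the gene on the horizontal axis, these 6 values of r lay between 0.812 and 0.996. Over the 6 siRNA arrays they lay between 0.926 and 0.993, and the 2 shRNA arrays are too few for a value of their own.

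H2-Eb1 and Ciita were the other related pair, with r = 0.861 (exact permutation p = 0.0126, adjusted p = 0.0269), and r = 0.957 without siGFP 1 and siYAP/TAZ 2. Their rho of 0.738 missed the threshold (exact permutation p = 0.0458, adjusted p = 0.0764), and over the 6 siRNA arrays r was 0.852. Between the 4 genes of the first set and these 2 genes, r lay between 0.0833 (H2-DMa with Ciita) and 0.693 (H2-Ab1 with H2-Eb1), and none of these 8 passed the adjustment (exact permutation, adjusted p of 0.114 to 0.866 for r and 0.0764 to 0.582 for rho). Whether the correlations of the first set differ from those of the second was not tested.

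The comparison of siYAP/TAZ with siGFP asks how these genes stand after transfection with siRNAs against YAP and TAZ, in arrays where neither targeted gene differed by the test. All 6 had a higher mean in siYAP/TAZ, with a median log2 difference of 0.83, against -0.02 over all 19938 genes, of which 46.4% had a higher mean. None passed limma's test at an adjusted p of 0.05. In this comparison limma called 0 of 19938 genes (0.0%), and 237 (1.19%) had an unadjusted p under 0.05, none of them among the 6. H2-Aa averaged 8.71 ± 0.88 in siYAP/TAZ and 7.50 ± 2.23 in siGFP (SD, n = 3 each). The difference was 1.20 on the log2 scale, with an SE of 0.97 and a 95% interval of -1.01 to 3.41. The log2 difference was 0.90 (SE 0.85) for Cd74, 0.83 (SE 0.92) for H2-Ab1, 0.83 (SE 0.63) for Ciita, 0.50 (SE 0.94) for H2-Eb1 and 0.34 (SE 0.82) for H2-DMa. Limma's adjusted p was 1.00 for each, and the exact two-sided permutation p lay between 0.4 (H2-Aa, Ciita) and 1 (H2-DMa), where 3 arrays against 3 cannot go below 0.1. The groups overlapped for all 6; they did not overlap for 4.59% of all genes, 1.6% being higher in siYAP/TAZ. For 4 of the 6 the direction rested on single arrays, while H2-Aa (0.03 to 2.25) and Ciita (0.36 to 1.61) stayed above 0 without any single array. Without siGFP 3 the log2 difference was -0.28 for H2-Ab1, -0.18 for H2-Eb1, -0.47 for H2-DMa and -0.06 for Cd74, and the median of the 6 was -0.12. Without siYAP/TAZ 1 it was -0.24 for H2-DMa, and without siYAP/TAZ 2 it was -0.02 for H2-Eb1.

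The labelled pairs ran in different directions. Whether the numbers mark arrays that belong together is not known: deviations from the group means correlated at 0.755, -0.13 and 0.571 in pairs 1, 2 and 3. In siYAP/TAZ 1 against siGFP 1, 5 of the 6 genes were lower in siYAP/TAZ 1, with a median log2 difference of -0.55. H2-Eb1 was lower by the most, 9.21-fold, and Ciita was 2.44-fold lower, while H2-Aa differed by 0.05 on the log2 scale. None of the 6 was at least 2-fold higher and 2 were at least 2-fold lower, beside 2.02% and 2.34% of all genes. In siYAP/TAZ 2 against siGFP 2, 5 of 6 were higher (median 0.89), led by H2-Eb1 at 4.37-fold and Ciita at 2.81-fold, with H2-DMa at -0.10. These 2 were the only ones of the 6 past 2-fold, beside 4.79% of all genes higher and 8.36% lower. In siYAP/TAZ 3 against siGFP 3 all 6 were higher by at least 2-fold (median 2.44), from 2.65-fold for H2-DMa to 6.81-fold for H2-Ab1. In that pair 2.16% of all genes were at least 2-fold higher and 1.66% at least 2-fold lower. In shYAP/TAZ against shLacZ, where there is no replicate and no test, 4 of 6 were higher, none differed by 2-fold (1.84% of all genes were so much higher and 2.76% lower), and the differences ran from -0.18 for H2-Aa to 0.72 for Cd74. None of the 6 had a difference of one sign in all 4 pairs; 6.02% of all genes were higher in every pair and 8.95% lower in every pair. With the labelled pair as a block over the 8 arrays, limma called 4 genes (0.0201%), none of them among the 6, and 7.49% of genes had an unadjusted p under 0.05. Cd74 stood at 0.85 (SE 0.31, unadjusted p = 0.0202, adjusted p = 0.545) and H2-Aa at 0.86 (SE 0.41, adjusted p = 0.708). The siRNA difference minus the shRNA difference, tested with the lone shRNA arrays assumed to vary like the siRNA groups, passed for 0 genes of 19938 (0.0%; 70, or 0.351%, at an unadjusted p under 0.05), with log2 values between -0.08 for H2-Eb1 and 1.39 for H2-Aa (limma adjusted p = 1.00 for each of the 6).

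**Figure D2:**
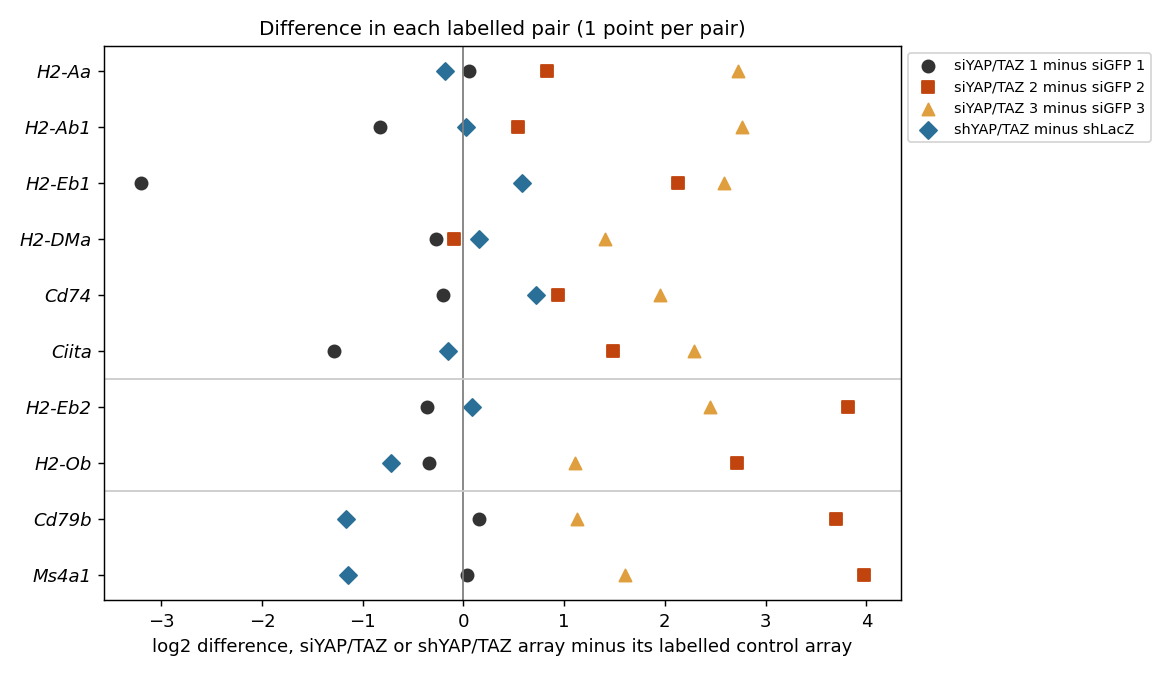
Log2 difference of each siYAP/TAZ or shYAP/TAZ array from its labelled control (horizontal axis) for the 6 class II genes, H2-Eb2, H2-Ob and the B cell genes Cd79b and Ms4a1 (rows), with 1 point per pair. Pair 1 lay at or left of 0 for the class II genes apart from H2-Aa at 0.05, and pair 3 lay between 1.41 and 2.77 for all 6.

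B cells express class II genes constitutively, so the 6 genes were set against Cd79b, a signalling chain of the B cell receptor, and Ms4a1, a B cell surface protein. Cd79b read 5.32, 8.81 and 6.80 in siYAP/TAZ, against 5.16, 5.10 and 5.67 in siGFP, and 4.96 in shYAP/TAZ, against 6.12 in shLacZ. Ms4a1 read 4.53, 8.52 and 6.99 in siYAP/TAZ, against 4.50, 4.54 and 5.39 in siGFP, and 4.56 in shYAP/TAZ, against 5.71 in shLacZ. Both stood apart in siYAP/TAZ 2 and siYAP/TAZ 3. In the arrays numbered 1, where H2-Aa, H2-Ab1, Cd74 and H2-DMa were highest, Ms4a1 and Cd79b were near the lowest of their own levels over the 8 arrays. H2-Eb1 was at its highest level in siGFP 1, the array with the lowest Ms4a1.

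In 12 relations over the 8 arrays, none passed the adjustment. Ciita had the highest correlations, r = 0.722 with Cd79b (exact permutation p = 0.0388) and 0.768 with Ms4a1 (exact permutation p = 0.0331), each with an adjusted p of 0.233 and rho = 0.452 (exact permutation p = 0.267, adjusted p = 0.864). They rested on siYAP/TAZ 2 and siYAP/TAZ 3, and without these arrays r was -0.226 and -0.26. H2-Eb1 had r = 0.484 with Cd79b and 0.48 with Ms4a1 (exact permutation p of 0.222 and 0.231, adjusted p = 0.692), with rho of 0.0476 and -0.0714, and r of -0.452 and -0.519 without the same arrays. For H2-Aa, H2-Ab1 and Cd74, r lay between 0.00887 and 0.147 and rho between -0.381 and 0.167, and for H2-DMa r was -0.204 with Cd79b and -0.296 with Ms4a1 and rho -0.262 and -0.619 (exact permutation, adjusted p = 0.986 for r and 0.864 to 0.977 for rho). Without siYAP/TAZ 2 and siYAP/TAZ 3, r was below 0 for all 12, between -0.769 for Cd74 with Ms4a1 and -0.226 for Ciita with Cd79b. On the remaining arrays Ms4a1 was near the floor, at 4.50 to 4.56, apart from siGFP 3 (5.39) and shLacZ (5.71). At those low levels 1.52% to 2.32% of genes read lower. The r with Ms4a1 therefore rest largely on siGFP 3 and shLacZ, and none of these 12 values was tested. Over the 6 siRNA arrays r ran from -0.406 for H2-DMa to 0.773 for Ciita, both with Ms4a1.

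**Figure D3:**
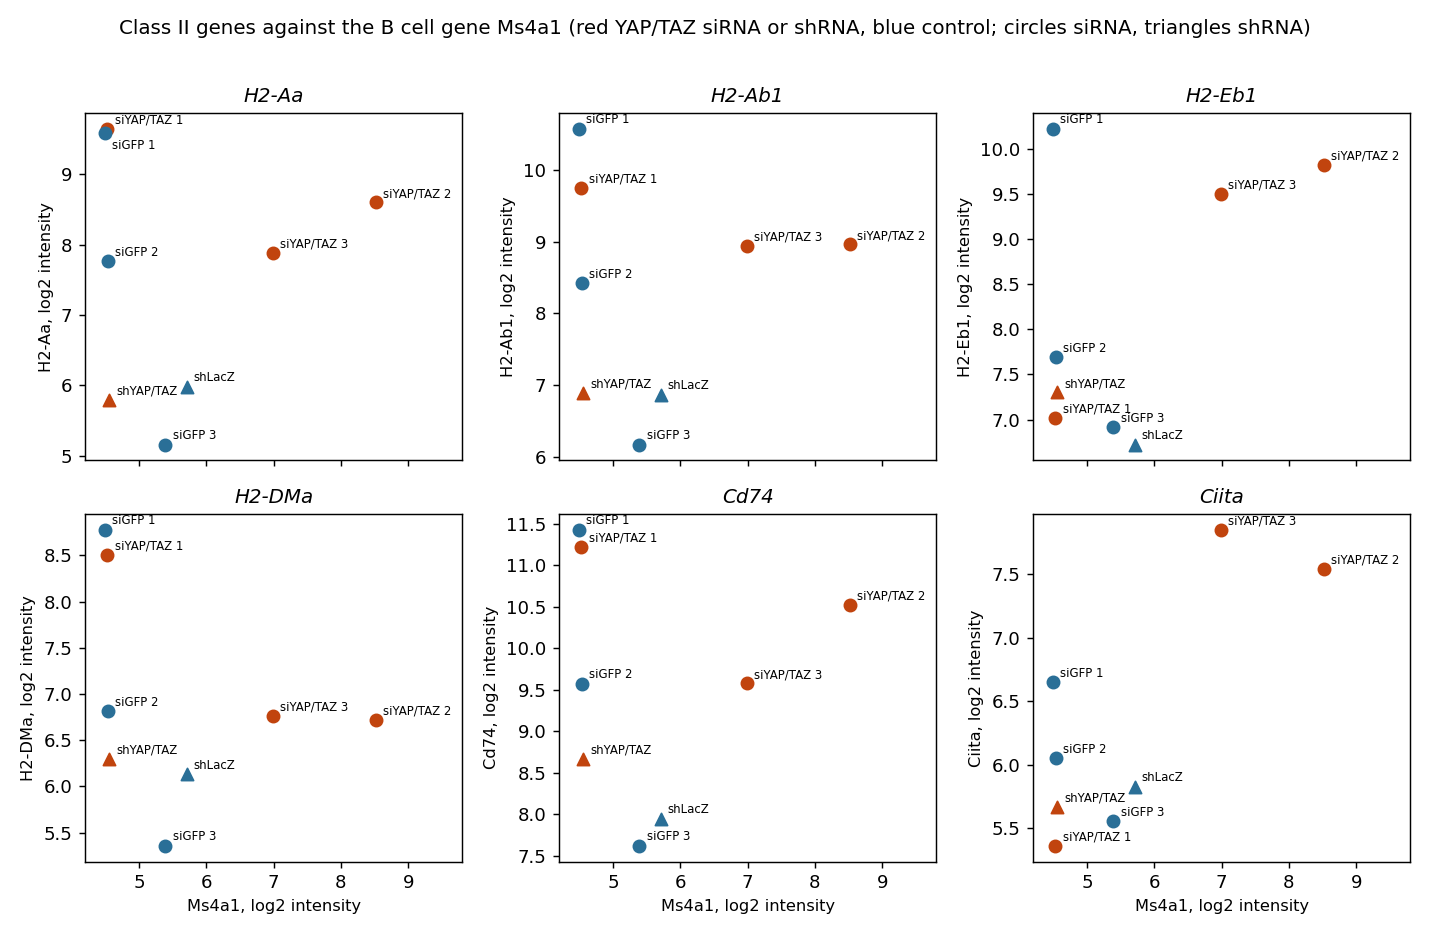
Log2 intensity of each class II gene (vertical axis) against that of the B cell gene Ms4a1 (horizontal axis), with 1 point per array, siYAP/TAZ and shYAP/TAZ in red and controls in blue, circles for siRNA and triangles for shRNA. siYAP/TAZ 1 and siGFP 1 sit at the left edge, at Ms4a1 levels of 4.53 and 4.50, with the highest H2-Aa, H2-Ab1, H2-DMa and Cd74; Ciita was highest in siYAP/TAZ 3 and siYAP/TAZ 2, at the right.

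The other class II chains did not share one order. H2-Eb2, a further gene of the E beta chain type, read 5.0, 8.54 and 7.70 in siYAP/TAZ, against 5.36, 4.73 and 5.25 in siGFP, and 5.08 in shYAP/TAZ, against 4.99 in shLacZ. H2-Ob, the beta chain of H2-O, which restrains H2-DM and is known mainly from B cells and thymus, read 5.52, 8.32 and 7.54 in siYAP/TAZ, against 5.86, 5.60 and 6.44 in siGFP, and 5.91 in shYAP/TAZ, against 6.64 in shLacZ. Both genes were high in siYAP/TAZ 2 and siYAP/TAZ 3, as Cd79b and Ms4a1 were, and neither was high in the arrays numbered 1. Their log2 differences were 1.97 (SE 0.78) for H2-Eb2 and 1.16 (SE 0.64) for H2-Ob (limma adjusted p = 1.00). H2-Oa, the alpha chain of H2-O, stayed between 6.23 and 6.77 on all arrays. H2-Ea, the I-E alpha chain, which some inbred strains do not express because of a promoter deletion, read 5.19, 5.50 and 4.92 in siYAP/TAZ, against 4.75, 4.83 and 6.55 in siGFP, and 6.62 in shYAP/TAZ, against 7.65 in shLacZ. It was highest in shLacZ, shYAP/TAZ and siGFP 3, the 3 arrays with the lowest H2-Aa, Cd74 and H2-Ab1. Its log2 difference in the siRNA arm was -0.17 (SE 0.49, limma adjusted p = 1.00).

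**Figure D4:**
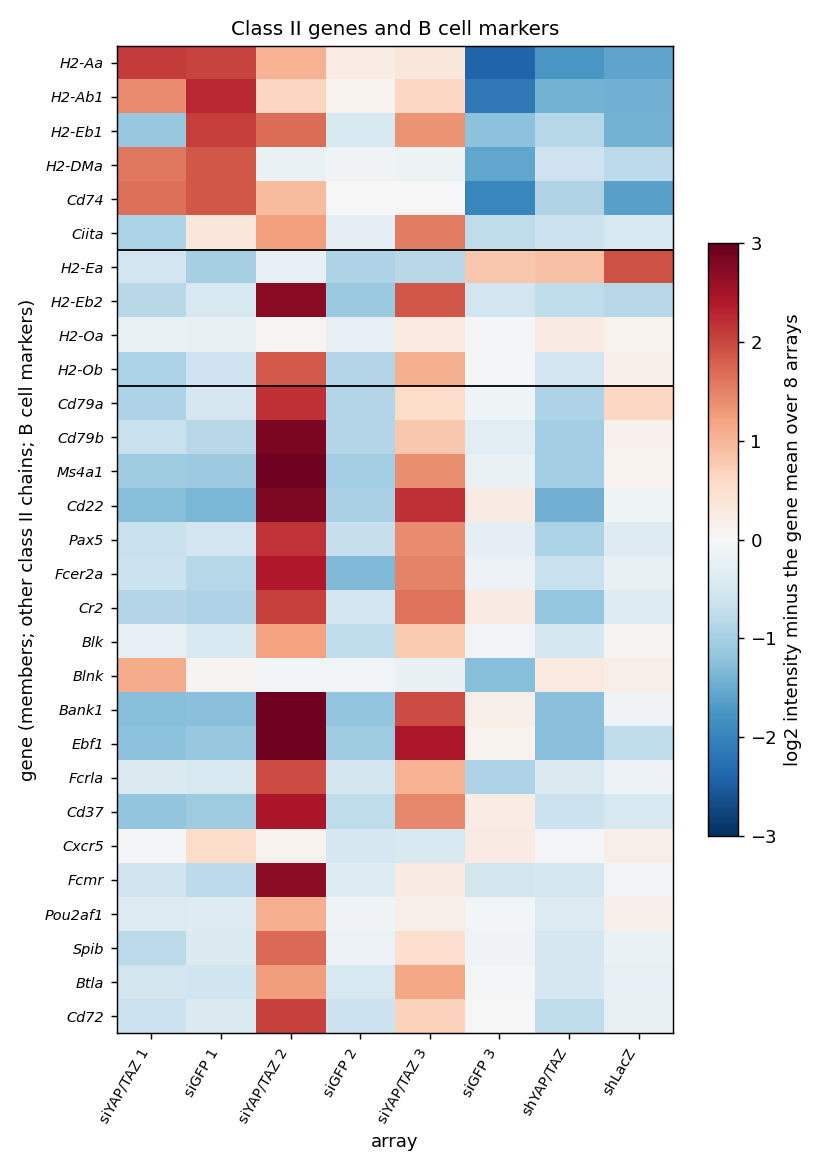
Log2 intensity minus each gene's mean over the 8 arrays (colour, from blue below to red above) for the 6 class II genes, 4 other class II chains and 19 B cell markers (rows) on each array (columns, siYAP/TAZ and shYAP/TAZ left of their controls). In siYAP/TAZ 2, 17 of the 19 B cell markers were at least 2-fold higher than in siGFP 2 (4.79% of all genes were, and 8.36% were as much lower), whereas H2-Aa, H2-Ab1, H2-DMa and Cd74 were highest in siYAP/TAZ 1 and siGFP 1.

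The array pair numbered 1 went against the other siRNA pairs, so the comparison was repeated without siYAP/TAZ 1 and siGFP 1. This choice was made because of these genes' own values and leaves 2 arrays a group, so its calls are a description of the remaining arrays. Limma then called 61 genes, 0.306% of those tested (0.226% higher in siYAP/TAZ), and among them H2-Eb1, with a log2 difference of 2.36 (SE 0.41, adjusted p = 0.000824), and Ciita, with 1.89 (SE 0.41, adjusted p = 0.0144). H2-Aa stood at 1.78 (adjusted p = 0.118), H2-Ab1 at 1.65 (adjusted p = 0.143), Cd74 at 1.45 (adjusted p = 0.312) and H2-DMa at 0.66 (adjusted p = 1.00). H2-Eb2, at 3.13 (adjusted p = 5.72e-06), and H2-Ob, at 1.91 (adjusted p = 0.0157), passed too. So did 12 of the 19 measured B cell markers, with Ebf1, a B lineage transcription factor, at 3.15 and Ms4a1 at 2.79. The summed intensity of the 19 B cell markers ran from 970 to 5472 in siYAP/TAZ and from 802 to 1095 in siGFP, with the lowest siYAP/TAZ value in siYAP/TAZ 1. In the full siRNA comparison 18 of the 19 had a higher mean (median log2 difference 1.35; limma called 0), led by Ebf1 at 2.07, Bank1, a B cell adaptor, at 1.95, Cd22, an inhibitory B cell receptor, at 1.94 and Ms4a1 at 1.87. The part of these cells in the differences of H2-Eb1 and Ciita was not tested. In the arrays numbered 1, the 19 markers read 5.82 or less, except Blnk, an adaptor of B cell signalling named after its values were seen, which read 8.45 in siYAP/TAZ 1 and 7.40 in siGFP 1.

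The 11 dendritic cell markers summed to between 857 and 1506 in siYAP/TAZ and between 783 and 1296 in siGFP, with 7 of 11 higher in the mean (median 0.08) and none called. Their largest difference was 0.65 for Ccr7, a homing receptor of dendritic cells and lymphocytes, which was highest in siYAP/TAZ 2 at 9.17. In the arrays numbered 1 the sums were 857 in siYAP/TAZ 1, the lowest of its group, and 923 in siGFP 1. The sum of 1506 in siYAP/TAZ 2 is in good part that of Ccr7. Flt3, Clec9a and Clec10a, named after their values were seen, read 5.77 or less on every array and add little beyond low signal. This does not hold for the whole list: Zbtb46 read 6.88 to 7.94 and Cd209a 6.68 to 7.92 over the arrays. The 12 macrophage markers summed to between 2904 and 3654 in siYAP/TAZ and between 3074 and 4722 in siGFP, with 4 of 12 higher in the mean (median -0.18) and none called. These sums rest mainly on Mertk, a receptor for dying cells, and Lyz2, a lysozyme of myeloid cells. Mertk read 9.02 in siYAP/TAZ 1 and 9.60 in siGFP 1, its lowest levels, where Lyz2 read 10.41 and 10.58. Some markers of this list were named after their values were seen. Of these, Csf1r, C1qa, C1qb and C1qc were at their lowest in siYAP/TAZ 1, at 5.53, 6.86, 5.89 and 4.83. In siGFP 1 they read 6.17, 7.24, 6.0 and 5.54. Cd68, Fcgr1, Adgre1 and Cx3cr1, named so too, were not at their lowest in siYAP/TAZ 1. They read 6.08, 5.97, 5.33 and 5.86 there, and 5.89, 5.46, 5.40 and 5.77 in siGFP 1. Cd14, a lipopolysaccharide co-receptor also named so, was highest in siYAP/TAZ 1, at 8.84, and read 7.50 in siGFP 1. The log2 difference was -0.67 for Lyz2 and 0.66 for Mrc1, the mannose receptor. Mrc1 had its highest level, 6.45, in siYAP/TAZ 1. The summed intensity of the 6 class II genes was 4581 in siYAP/TAZ 1 and 6782 in siGFP 1, against 2555 to 3547 in the other siYAP/TAZ arrays and 513 to 1709 in the other siGFP arrays.

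Plasma cell markers had a median log2 difference of 0.10 (6 of 8 higher, none called), T cell markers 0.28 (6 of 9 higher, none called) and markers of the follicle-associated epithelium and M cells -0.03 (4 of 8 higher, none called). Gp2, a defining M cell receptor named after its values were seen, stayed between 4.21 and 4.93 on all arrays. T cell sums ran from 826 to 1365 in siYAP/TAZ and from 516 to 1377 in siGFP, lowest in siGFP 3, the array with the lowest H2-Aa, H2-Ab1, Cd74 and H2-DMa. The T cell sum was also 1536 in shYAP/TAZ and 2459 in shLacZ, where these genes were low. Cd3e, a chain of the T cell receptor complex, also read lowest in siGFP 3, at 5.29, and highest in shLacZ, at 8.25. The 5 costimulation genes were all higher in the mean (median 0.30, none called), with Cd86, a ligand for CD28, at 0.47. The 12 epithelial markers had a median of -0.20, with 2 higher and 10 lower in the mean and none called, and Epcam at -0.35.

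Genes that act with Ciita on class II promoters had small differences. Of 7 measured genes of that complex, 2 had a higher and 5 a lower mean in siYAP/TAZ, with a median of -0.07 and none called. Rfx5, a subunit of the RFX factor that binds the X box, read 5.91, 6.95 and 6.90 in siYAP/TAZ, against 6.38, 6.19 and 6.0 in siGFP, and 6.14 in shYAP/TAZ, against 6.31 in shLacZ. It was highest in siYAP/TAZ 2 and siYAP/TAZ 3, and its log2 difference was 0.40 (SE 0.36, limma adjusted p = 1.00). Its partners Rfxap and Rfxank stood at -0.15 and -0.13, the NF-Y subunits Nfya, Nfyb and Nfyc at -0.07, -0.07 and 0.05, and Creb1, which binds beside RFX, at -0.10. Endosomal processing genes had a median of -0.05, with 5 of 13 higher in the mean and none called. Ctse, an endosomal aspartic protease, stood at 0.78, Ctsl, a cysteine protease that trims the invariant chain in some cells, at 0.67, Lgmn, an asparaginyl endopeptidase, at 0.60 and Marchf1, a ubiquitin ligase that lowers surface class II, at 0.32.

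Interferon gamma is the main inducer of Ciita outside the immune lineages. Of 17 measured genes of its pathway and response, 13 had a higher mean in siYAP/TAZ, with a median of 0.61 and none called. In all 4 labelled pairs 8 of the 17 were higher and 1 lower, beside 6.02% and 8.95% of all genes. Iigp1, an interferon-induced GTPase, read 6.38, 6.27 and 7.23 in siYAP/TAZ, against 5.37, 5.12 and 5.26 in siGFP, and 5.56 in shYAP/TAZ, against 4.51 in shLacZ. Its groups did not overlap, and its log2 difference was 1.38 (SE 0.34, limma adjusted p = 1.00). Socs1, a feedback inhibitor of interferon signalling, stood at 1.29, Cd274, an inhibitory ligand induced by interferon, at 1.22 and Irgm1, an immunity-related GTPase, at 1.17. Ifng itself, named after its values were seen, stayed between 5.21 and 6.08 on all arrays. In siYAP/TAZ 3 against siGFP 3, the pair in which all 6 class II genes were past 2-fold, 10 of the 17 were at least 2-fold higher, beside 2.16% of all genes. In siYAP/TAZ 1 against siGFP 1 and siYAP/TAZ 2 against siGFP 2 it was 2 of 17 each, beside 2.02% and 4.79% of all genes. Class I and immunoproteasome genes had a median of 0.51, with 5 of 7 higher in the mean and none called. Psmb9 stood at 0.88 and Tap1, the peptide transporter, at 0.85. The class I chain genes H2-K1 and H2-D1 were not analysed, and B2m, named after its values were seen, stood at -0.14. In siYAP/TAZ 1 against siGFP 1, 10 of the 17 interferon pathway genes were higher, beside 9362 of all 19938 genes. The median log2 difference of the 17 was 0.12, with Iigp1 at 1.01. In the same pair 1 of the 6 class II genes was higher (median -0.55), with H2-Aa at 0.05 and Cd74 at -0.21. Tap1 was highest in siYAP/TAZ 3, at 11.06. The part of interferon in the class II differences was not tested.

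The genes whose pattern was most like the mean of the 6 centred class II profiles were sought among 12761 genes outside the dimmest 33%. This mean profile was highest in siGFP 1, at 1.74, and lowest in siGFP 3, at -1.67. By Pearson's r over the 8 arrays the first 10 were Dock11 (0.897), Fam111a (0.884), AW112010 (0.874), Oxct1 (0.859), Ndufaf2 (0.853), Olfr1220 (0.837), Slc40a1 (0.822), Ppwd1 (0.817), Pdia5 (0.815) and Bmt2 (0.808). Dock11, an activator of the small GTPase Cdc42, read 7.56, 7.37 and 8.27 in siYAP/TAZ, against 8.75, 6.64 and 6.17 in siGFP, and 6.11 in shYAP/TAZ, against 6.68 in shLacZ. They are the top of a ranking over 8 arrays, and no test was made of them.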

How the data were processed

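RNA of 8 arrays was labelled with an Affymetrix WT Terminal Labeling and Hybridization kit, per the labels. The authors deposited linear intensity values of 28853 probe sets, 1 a probe set on each array. The software, background correction, summarisation and scaling they used were not given in the sources used here. Values lay above 16 on every array. Array medians differed by up to 0.32 on the log2 scale, over the set limit of 0.2, so log2 values were quantile normalized. Of the probe sets, 21789 named 1 gene in the platform table, 1621 several and 5443 none. Each of 19938 genes kept its brightest probe set; no dim genes were removed. limma 3.58.1 in R 4.3.3 (lmFit, eBayes) gave all adjusted p-values of expression differences, Benjamini-Hochberg over all genes, threshold 0.05, and was tested on simulated data. The simulation gave every gene the same independent noise, so it does not say what could be called in these data. Correlations used Python 3.11.15 and SciPy 1.17.1. Their exact permutation p-values were adjusted by Benjamini-Hochberg over the 15 relations among the 6 genes or the 12 with Cd79b and Ms4a1. The class II genes, marker lists and motifs were chosen with earlier results of these data known. Named genes were the 6 class II genes, Cd79b, Ms4a1, 2 short lists in full and the 10 most alike in pattern. Of each other list they were up to 4 with the largest differences. Blnk, Cd14, Csf1r, C1qa, C1qb, C1qc, Cd68, Fcgr1, Adgre1, Cx3cr1, Flt3, Clec9a, Clec10a, Gp2, B2m and Ifng were added after their values were seen. Of the lists, 11 genes were not analysed here. No depth applies to arrays; the number of arrays limits the precision. Alternatives were the 75th percentile centring, no normalization, 16 subtracted, a trended prior, a filter on dim genes, another probe set, the replicate block and leaving out arrays.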

Additional observations from a re-analysis of the deposited data

How the results depend on the processing

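In the siRNA arm no class II gene of the 6 was called under any scaling, prior or filter tried, nor without any single array, and 75th percentile centring, no normalization and subtraction of 16 left all 6 differences above 0. Leaving out single arrays gave ranges of 0 to 13 for genes called, -0.12 to 1.66 for the median of the 6, 0.74 to 2.16 for that of the B cell markers, -0.28 to 1.92 for H2-Ab1, -0.18 to 1.48 for H2-Eb1, -0.47 to 1.24 for H2-DMa, -0.062 to 1.84 for Cd74, 0.03 to 2.25 for H2-Aa and 0.36 to 1.61 for Ciita. The 13 calls came without siYAP/TAZ 1. Without both arrays numbered 1, limma called 61 genes, 2 of the 6 among them (H2-Eb1 2.36, Ciita 1.89). This omission was chosen after seeing the data, in which H2-Eb1 and Ciita ran the other way in that pair. Each of the 6 has 1 probe set, so another choice of probe set could not change their values. With the replicate block 1 gene was called in the siRNA arm and 0 of the 6. The deviations of same-numbered arrays from their group means had correlations of 0.755, -0.13 and 0.571, and siYAP/TAZ 2 correlated best with siGFP 3 (0.583). The main siRNA comparison therefore did not take the numbers as a pairing. The results by labelled pair do use them and carry this limit. Over the 4 labelled pairs limma called 4 genes, against 15 with 75th percentile centring, 19 with no normalization, 2 with 16 subtracted, 12 with a trended robust prior, 8 without the dimmest 33% and 0 with no replicate block, none of them among the 6. Leaving out a pair gave 1 to 26 genes and ranges of -0.17 to 1.76 for H2-Eb1, -0.086 to 1.11 for H2-Ab1 and -0.071 to 0.49 for H2-DMa, with H2-Eb1 at -0.01 without pair 2. The cause of these changes was not tested. Few arrays and wide spread limit what can be called: the 95% interval of H2-Aa ran from -1.01 to 3.41.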
